A study of Homo sapiens with 2 samples.

Results

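Retained-intron transcripts of protein-coding genes were described in HEK293 Flp-In T-Rex cells. These are transcripts that GENCODE v44 types as retained intron, in genes that it types as protein coding, found by matching transcript identifiers without their version. Of the 206696 transcripts listed, 27836 met the rule, in 9378 genes. Their share of each gene's total was followed in genes with at least 100 normalised counts in both libraries. This minimum left 11405 protein-coding genes, of which 6852 had such transcripts, 22123 in all. No measured value entered the rule for the transcripts, although it was chosen with earlier results of these data known. The count minimum applied to gene totals. These include the retained-intron counts, so a gene could pass through them alone. Next to the minimum, CEP162 (totals of 159 and 100.03) and SPAG4 (105 and 100.1) were just inside. TSPOAP1 (99.5 and 119) and SCN4B (99.5 and 106) were just outside.

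An intron is removed from the primary transcript by the spliceosome, which reads a donor site at the 5′ end of the intron, usually beginning with GT, and an acceptor site at the 3′ end, usually finishing with AG. Where an intron stays in a polyadenylated RNA, the RNA may be held in the nucleus, spliced later ("detained"), or exported and removed by nonsense-mediated decay because the intron brings a premature stop codon. Genes for splicing factors are known for such introns, which tune the amount of their own protein. The annotated type is a label of a transcript model, and many such models are short fragments whose only trace of an intron is an exon that runs past its usual boundary.

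The study sequenced rRNA-depleted total RNA from untreated cells of this line, in which a transgene can be placed at a single integration site under tetracycline control. HEK293 cells are immortalised cells first grown from human embryonic kidney. Both libraries formed 1 group, replicate 1 and replicate 2, with 25158962 and 27143860 estimated counts. There was therefore no comparison between conditions, and the spread between the libraries was the only error available, which may be technical because separate cultures were not stated. With 2 libraries the smallest p of a sign-flip test is 0.5, so no test was run. A difference is called larger than the spread where replicates 1 and 2 ranked the values alike and the means lay further apart than the sum of their SDs. Of 8 genes set as markers of HEK293 cells, 7 had at least 10 normalised counts in both libraries (summed level 21858 and 20869), and PAX8 was near 1. Of 6 markers of other cell types, the leukocyte genes PTPRC and CD3E and the hepatocyte gene ALB were at 0 and the endothelial gene PECAM1 was near 1. COL1A1, a collagen of fibroblasts, had 156 and 291, and HBB, a globin of erythrocytes, had 179 and 182.

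Introns of some transcripts with a high count or from genes with a high share are shown first. A whole intron is part of what sets these transcripts apart from the coding ones. They were picked after the values were seen and are not the full set, since introns of ALDOA-212 and RPL10-210, among others with high counts, are not shown. Each is an intron of a coding transcript that lies whole inside an exon of the named retained-intron transcript, read 5′ to 3′ on the strand of the gene from GRCh38 (hg38). Capitals mark the first and last dinucleotide, and all introns shown lie within the coding region of the gene's canonical transcript. METTL2A-202 is added because its gene belongs to the enzyme family under study.
EEF1A1-208, intron 6, chr6:73518265-73518353, minus strand, 89 bases: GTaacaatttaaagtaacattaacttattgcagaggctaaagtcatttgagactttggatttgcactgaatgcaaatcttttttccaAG
EEF1A1-210, intron 3, chr6:73519229-73519336, minus strand, 108 bases: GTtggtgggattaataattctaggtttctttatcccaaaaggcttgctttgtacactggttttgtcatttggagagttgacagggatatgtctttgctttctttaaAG
MCM7-209, intron 4, chr7:100099204-100099278, minus strand, 75 bases: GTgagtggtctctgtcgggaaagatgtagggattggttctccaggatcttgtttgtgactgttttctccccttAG
MIF-202, intron 2, chr22:23894945-23895039, plus strand, 95 bases: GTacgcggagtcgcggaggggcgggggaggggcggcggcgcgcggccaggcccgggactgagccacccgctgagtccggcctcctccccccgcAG
PAXX-203, intron 3, chr9:136992975-136993052, plus strand, 78 bases: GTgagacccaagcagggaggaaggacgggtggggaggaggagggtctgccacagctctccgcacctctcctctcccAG
METTL2A-202, intron 1, chr17:62424013-62424218, plus strand, 206 bases: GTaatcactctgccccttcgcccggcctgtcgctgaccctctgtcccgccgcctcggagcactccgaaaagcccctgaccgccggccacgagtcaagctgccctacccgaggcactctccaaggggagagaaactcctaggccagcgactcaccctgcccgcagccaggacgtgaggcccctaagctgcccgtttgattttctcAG
The GC content of these introns ran from 31.5% in EEF1A1-208 to 82.1% in MIF-202, and was 65.0% in METTL2A-202.

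For longer introns the splice sites are shown, as 9 letters at the donor (3 of the exon and 6 of the intron) and 23 at the acceptor (20 of the intron and 3 of the exon), with the invariant letters in capitals. They come from genes for splicing factors and nuclear regulators whose retained-intron transcripts are described further on, and were picked after their values were seen.
ARGLU1-204, intron 2, chr13:106557132-106559431, 2300 bases, donor: gagGTaacg
ARGLU1-204, the same intron, acceptor: taacatatcctcccctttAGgag
DDX5-215, intron 11, chr17:64500774-64502009, 1236 bases, donor: tagGTtagt
DDX5-215, the same intron, acceptor: cacactgcaacaccttacAGatg
OGT-210, intron 4, chrX:71544636-71547906, 3271 bases, donor: aagGTaggt
OGT-210, the same intron, acceptor: tttcattaacccctcctaAGgca
Each site was scored in log2 odds, the sum over positions of how much more often a letter occurs at the GT-AG introns of these genes than among 4 equally frequent letters. The acceptors of ARGLU1, DDX5 and OGT scored 8.61, 3.51 and 5.59, under the median of 9.52 for introns outside retained-intron transcripts. Acceptors of other introns from such genes lay on both sides of it. Intron 4 of CCNL1-204 scored 15.2, intron 4 of CLK1-210 13.1 and intron 11 of DDX17-201 -0.447. The introns shown therefore do not stand for the group. The donors scored 6.91, 7.10 and 10.2 against a median of 8.14, so the OGT donor lay above it.

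Retained-intron transcripts held 6.82% of the normalised counts of protein-coding genes in replicate 1 and 6.59% in replicate 2. The mean was 6.71% ± 0.163 (SD, n = 2). The exact 95% intervals were 6.81 to 6.83% and 6.58 to 6.60%, so the libraries differed by more than counting error. Nonsense-mediated decay transcripts held 5.16% ± 0.0608 (SD, n = 2) and transcripts of coding genes without a defined coding sequence 3.23% ± 0.0461 (SD, n = 2), and each of these differences from the retained-intron share was larger than the spread. Coding transcripts held 84.8% ± 0.146 (SD, n = 2). Counts grow with the length of a transcript, and retained-intron transcripts were short, with a median of 753 bases and 3 exons, against 1583 bases and 7 exons for coding transcripts of the same genes. When counts were divided by transcript length, the retained-intron share was 9.93% ± 0.0777 (SD, n = 2), still above nonsense-mediated decay at 6.05% ± 0.0623 (SD, n = 2) and undefined coding sequence at 6.80% ± 0.125 (SD, n = 2). The order of those other classes turned on this scale.

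**Figure D1:**
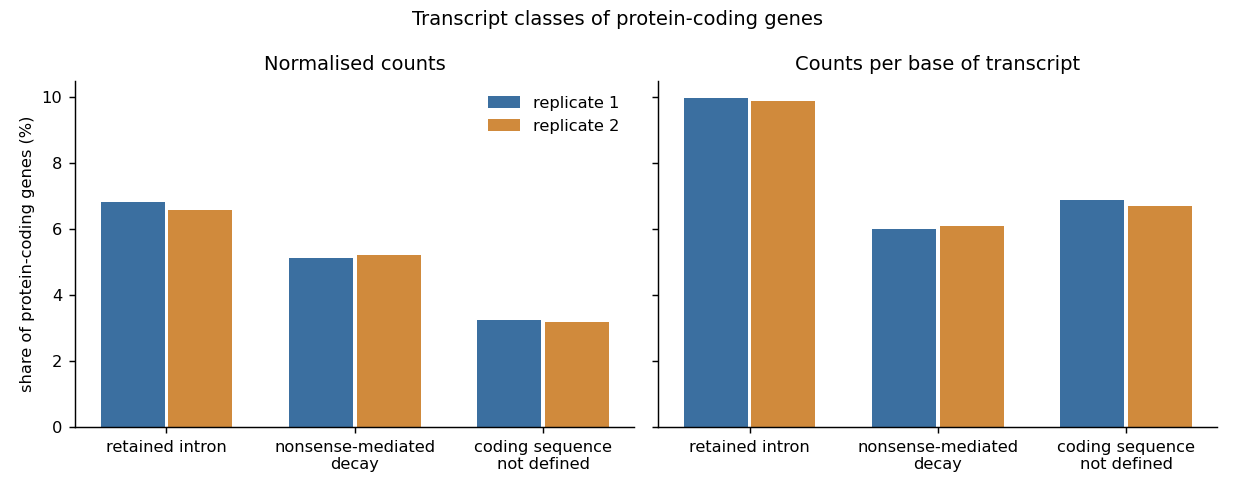
Share of protein-coding genes (%) held by 3 transcript classes in replicate 1 (blue) and replicate 2 (orange), by normalised counts on the left and by counts divided by transcript length on the right, with bars from 0. Retained-intron transcripts stood highest in both panels, at 6.82% and 6.59% by count, and the other classes changed places between the panels.

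EEF1A1, the translation elongation factor that carries aminoacyl-tRNA to the ribosome, set much of this total. Its transcripts made up 16.0% of all retained-intron counts in replicate 1 and 8.64% in replicate 2. Without this gene, an alternative chosen after the data were seen, the retained-intron share was 5.80% in replicate 1 and 6.09% in replicate 2, so the order of the libraries turned. The mean without it was 5.95% ± 0.202 (SD, n = 2).

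Most models were used by few reads. In replicate 1, 18963 of the 27836 transcripts were above 0, in replicate 2 19592, and 16806 in both. At 0 in both libraries were 6087, and 4943 were above 0 in a single library. In the genes with at least 100 counts, 9664 of 22123 had at least 10 in both libraries. The counts were concentrated: 406 transcripts held 50% of them and the 10 highest held 21.2%. The median number per gene was 2, and TSC2, the tuberin gene of the mTOR pathway, had the most with 35.

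What the models share could be read from their structure. A whole intron of a coding transcript lay inside 6713 of the 22123 transcripts (30.3%), and these held 49.97% of the retained-intron counts in replicate 1 and 48.97% in replicate 2. The structure of the others was not classified, and a gene without a listed coding transcript had no intron that could be counted. Own bases, those in no exon of any other listed type of transcript of the gene, numbered at least 100 in 18088 (81.8%), which held 75.7% and 73.7% of the counts. Fewer than 30 own bases were left in 1140 transcripts, which held 10.0% and 10.4% of the counts, and 515 had none. For transcripts with few own bases the estimated count rested almost wholly on how reads shared with other transcripts were divided.

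The median retained-intron share per gene was 4.64% in replicate 1 and 5.01% in replicate 2, on average 4.83% ± 0.262 (SD, n = 2). The quartiles were 1.57% and 12.6% and the 90th percentile was 26.5%. A share of at least 10% in both libraries was found in 1796 of 6852 genes (26.2%), of at least 50% in 174 (2.54%) and of at least 90% in 13. Under 1% in both were 898 genes, 160 of them at 0. A retained-intron transcript was the highest transcript of its gene in both libraries in 210 genes (3.06%), the same transcript in 198 of them, and in a single library in 141 more. Across the 6852 genes, the shares in the libraries had a Pearson r of 0.936 and a Spearman rho of 0.907, as a description, since both libraries come from 1 cell line and were counted against the same models. The median absolute difference was 1.34 percentage points, and 389 genes (5.68%) differed by more than 10 points.

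**Figure D2:**
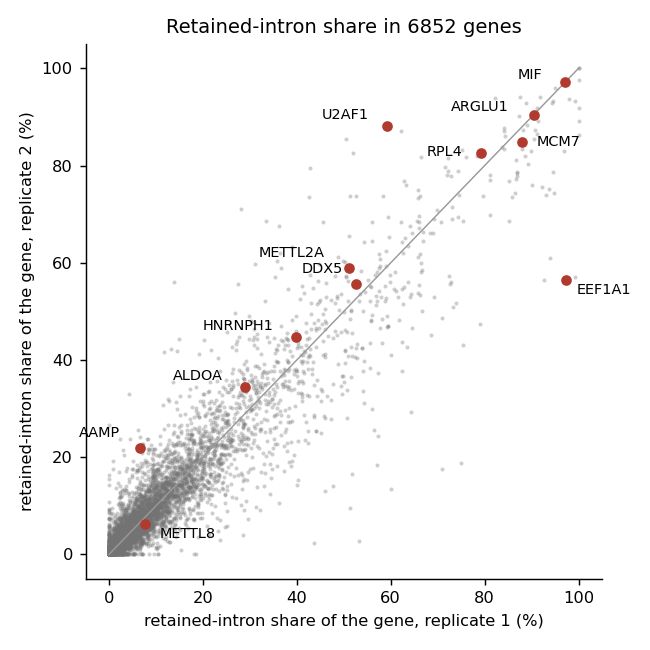
Retained-intron share of each gene (%) in replicate 1 (horizontal) against replicate 2 (vertical) for 6852 genes with at least 100 normalised counts in both libraries, with 12 genes named in red and the line of equal shares in grey. Most genes lay near the line with low shares, while EEF1A1 (97.3% and 56.5%) and U2AF1 (59.1% and 88.0%) lay far from it.

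Among the 10 highest transcripts, 8 came from genes of translation. EEF1A1-208 (ENST00000490569.5, chr6:73517515-73521373) had 143086 normalised counts in replicate 1 and 76978 in replicate 2. EEF1A1-209, which holds intron 2, had 56239 and 15849, and EEF1A1-210, with intron 3, had 19612 and 12626. All of them were higher in replicate 1, and the coding transcripts of the gene went the other way, with 6156 and 81425. The share of EEF1A1 was accordingly 97.3% and 56.5%, although the gene total was 226368 and 187393. The gene has many processed pseudogenes, and the models of these transcripts had changed version between the deposited identifiers and GENCODE v44, so their values are uncertain.

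MCM7 encodes a subunit of the replicative helicase. MCM7-209 (ENST00000489841.5, chr7:100092728-100101940) had 10264 and 10025 normalised counts, 83.4% and 80.1% of the gene. All coding transcripts of MCM7 together had 1480 and 1906, so the libraries agreed in placing most reads on this model. Its own bases numbered 75, as many as those of the intron printed above. MCM7-204, another retained-intron transcript with 429 and 425 normalised counts, holds the same intron. Which reads placed the counts on MCM7-209 was not examined. The version of this model had also changed.

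The other transcripts among the 10 highest held no whole intron. RPL4-203, of a large-subunit ribosomal protein, had 43609 and 37099 normalised counts with 121 own bases, and RPL4-205 had 9136 and 11927 with none. RPS23-203 had 15232 and 13693 with 78 own bases. RPL17-219 (19605 and 12405), RPL14-208 (13124 and 11104) and ACTG1-211 (10059 and 8695), the last of cytoplasmic γ-actin, had 11, 13 and 8 own bases. These are abundant genes with pseudogene copies, and the division of their reads between near-identical models is uncertain.

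The genes with the highest shares were mostly of lower expression. MIF, a small cytokine gene with tautomerase activity, was the exception, with totals of 9215 and 12838 normalised counts and a share of 97.1% ± 0.0514 (SD, n = 2). Its only coding transcript had 271 and 368. MIF-202 (ENST00000465752.1), which holds the 95-base intron 2, had 4893 and 7091, or 53.1% and 55.2% of the gene. Both libraries therefore placed most MIF reads on retained-intron models, and a little over 50% on one with a whole intron.

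DPM2, a regulatory subunit of dolichol-phosphate mannose synthase, had a share of 97.9% and 93.7%, led by DPM2-205 with 652 and 710 normalised counts around a 778-base intron. PAXX, a factor of non-homologous end joining, had 100% and 89.1%, spread over 7 retained-intron models. PAXX-203, with the 78-base intron printed above, was the highest of them at 369 and 380. JMJD8, a protein with a JmjC domain, had 100% and 97.6%, and its 3 coding transcripts were at 0 in both libraries. The coding transcripts of PAXX had 0 and 123 counts and those of DPM2 15.5 and 56.9, a wider difference between libraries than for the leading retained-intron transcripts.

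RPS28, of the small ribosomal subunit, had 94.9% and 96.0%, of which the transcripts with a whole intron accounted for 3.24% ± 0.367 (SD, n = 2). The share of SCHIP1 was 99.1% and 93.2% and that of ZFTRAF1 100% and 91.9%. GOLGA6L9, a member of a repeated golgin family whose copies share sequence, had 100% of 107 and 101 counts. ENSG00000261884, a gene model with no symbol in the annotation, had 94.5% and 93.2%. HBB had all of its 179 and 182 counts on HBB-203, a model with 24 own bases and no whole intron, while its 4 coding transcripts were at 0. HBB and GOLGA6L9 thus passed the minimum of 100 through retained-intron counts alone. SCHIP1 and ENSG00000261884, among others, also had too few other counts to pass without them. The exact lower bounds of the HBB share were 97.8% and 98.1%, and they cover counting error only.

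At the other end were abundant genes whose retained-intron models took almost nothing. CANX, the endoplasmic reticulum chaperone calnexin, had totals of 34829 and 26936 and its single model at 0. By counting error alone that allowed a share of at most 0.00911% and 0.0103%. EEF1G, another elongation factor subunit, had 79.6 and 2.74 counts on its model of 52542 and 46409. PRKDC, the DNA-dependent protein kinase with 7 models, had a share of 0.767% ± 0.0688 (SD, n = 2), and HUWE1, a ubiquitin ligase with 7 models, 0.468% ± 0.0356 (SD, n = 2). RPS19, RPS10, RPL32, the glycolytic gene TPI1 and the initiation factor gene EIF4B were also under 1% in both libraries, and RPS3 had 0.655% and 1.19%. A high level of a gene thus went with shares from 0 to 97.3%.

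The introns inside these transcripts were compared with all other introns of coding transcripts in the same genes. Of 126341 introns of at least 30 bases, 8808 lay inside a retained-intron transcript. They were short, with a median of 277 bases against 1883, and rich in GC, with a median of 55.3% against 43.5%. Their splice sites scored lower: the median was 7.52 against 8.14 at the donor and 8.07 against 9.52 at the acceptor. The dinucleotides GT and AG ended 97.9% of them. These are values of the annotation, given as a description without a test, and introns of 1 gene share its base composition.

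The contrast varied with length. Of introns of 30 to 100 bases, 24.5% lay inside a retained-intron transcript, of those of 201 to 500 bases 16.9%, of those of 1001 to 5000 bases 2.77% and of longer ones 0.0487%. Within a class of length the GC content differed less, at 55.8% against 53.3% for 201 to 500 bases and 50.7% against 46.1% for 501 to 1000. The acceptor score remained lower in each class up to 5000 bases, for example 7.95 against 8.68 for 201 to 500. Introns inside a transcript with at least 10 counts in both libraries, 6463 in number, had a median length of 325 bases, a GC content of 54.3% and an acceptor score of 8.10. They are most of the same 8808 introns, so similar medians were largely fixed in advance. The median length was above the 277 bases of the full set.

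**Figure D3:**
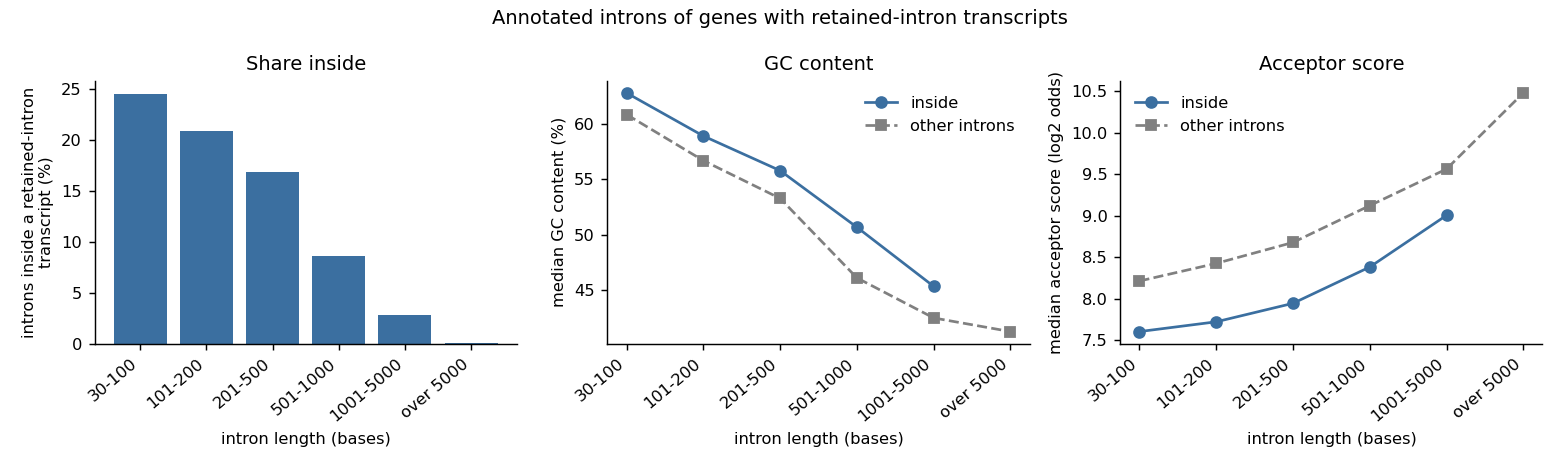
Introns of coding transcripts by length class (bases): the percentage that lies whole inside a retained-intron transcript (left), the median GC content (%, middle) and the median acceptor score (log2 odds, right) for introns inside (blue circles) and all others (grey squares). The percentage inside went from 24.5% in the shortest class to 0.0487% above 5000 bases, a class whose 15 introns inside are not drawn in the other panels.

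The percentage also differed by position in the gene. In canonical transcripts with at least 3 introns, 4.95% of first introns lay inside a retained-intron transcript, 7.29% of internal and 7.69% of last introns. First introns were also the longest, with a median of 4111 bases. By region the percentages were 2.7% of 3146 introns in the 5′ UTR, 7.32% of 89408 in the coding region and 12.5% of 288 in the 3′ UTR. Minor-class introns, which a separate spliceosome removes, numbered 41 (0.465%) of those inside and 356 (0.303%) of the others by their donor motif.

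The gene lists below were described by counts and medians, beside the 26.2% of all 6852 genes that reached a share of 10% in both libraries and their median of 4.83%. Detained-intron genes, known from other work for nuclear introns that are spliced late, had 21 of 27 genes at or over 10% and a median of 30.5% ± 0.628 (SD, n = 2). Counting transcripts with a whole intron only, 17 of the 27 reached 10% and the median was 21.96% ± 0.204 (SD, n = 2), against 11.7% of all genes and a median of 0.0%. The list was chosen for this property and with results of these data known, so its position is a description.

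ARGLU1, a co-regulator of splicing and of nuclear receptors, had 1 retained-intron transcript with 3137 and 2651 normalised counts. This was 90.4% of the gene in each library, with exact intervals of 89.3 to 91.4% and 89.4 to 91.4%, while the coding transcript had 151 and 103.8. By length the share was 63.5% ± 6.0 (SD, n = 2), since ARGLU1-204 is 4009 bases long. CCNL1, a cyclin of splicing speckles, had 86.7% and 81.1%, spread over 12 transcripts above 0 of 16. Its coding transcripts had 52.8 and 78.1. By counts the libraries differed little for ARGLU1. For CCNL1 they differed by more than counting error, with exact intervals of 84.7 to 88.5% and 78.7 to 83.2%. Coding transcripts took the smaller part in both genes.

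The helicase gene DDX5 had a share of 52.6% and 55.6%, and DDX5-215 alone had 1699 and 1709 normalised counts. Its paralogue DDX17 had 24.3% and 27.9%. CCNL2, the paralogue of CCNL1, had 56.9% and 53.2% with no transcript holding a whole intron. RBM39, a splicing factor of the U2AF family, had 59.1% and 49.0%. OGT, the enzyme that adds O-linked N-acetylglucosamine, had 43.7% and 47.6%, nearly all on OGT-210 with 1787 and 1868. The kinase genes CLK1, CLK3 and CLK4, whose products phosphorylate SR proteins, had mean shares of 26.6%, 19.0% and 30.5%. Not all of the list was high: PABPN1 and SON were at 0.733% and 0.735%, LUC7L3 at 2.24% and MAT2A at 7.02%.

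SR proteins, which bind exonic enhancers and recruit the spliceosome, had 7 of 12 genes at or over 10% and a median of 16.4% ± 4.26 (SD, n = 2). TRA2B led with 49.4% and 53.6%, followed by SRSF5 with 39.7% and 30.5% and SRSF3 with 33.8% and 35.3%. Transcripts with a whole intron made up only 3.62% ± 0.308 (SD, n = 2) of TRA2B and 13.4% ± 1.58 (SD, n = 2) of SRSF3. On the length scale the list median was 11.6% ± 3.21 (SD, n = 2), against 10.1% ± 0.413 (SD, n = 2) over all genes, a difference within the spread.

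The hnRNP proteins, many of which oppose SR proteins at splice sites, had 4 of 18 genes at or over 10%, a share near the background, and a median of 2.81% ± 0.445 (SD, n = 2). HNRNPH1 had 39.9% and 44.7% over 19 models, HNRNPU 25.8% and 23.1%, and HNRNPL 14.3% and 15.5%. Proteins of the U1 and U2 particles had 7 of 15 and a median of 7.66% ± 0.742 (SD, n = 2). U2AF1, which reads the acceptor AG, had 59.1% and 88.0%, and its reads may be shared with the near-identical U2AF1L5. SNRPF, a core Sm protein, had 58.8% and 52.2% with no whole intron, and SF3A2, of the U2 particle, 40.8% and 41.1%.

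A list of genes for 3-methylcytidine, the subject of the study, and for related tRNA functions had 5 of 11 genes at or over 10%. Its median was 9.98% ± 0.272 (SD, n = 2). The list includes the aminoacyl-tRNA synthetase genes SARS2, TARS1 and TARS2, which install no mark. METTL2A, a 3-methylcytidine methyltransferase of cytoplasmic tRNA, had 51.1% and 58.9%. METTL2A-202 (ENST00000333483.14), with the 206-base intron 1 printed above, had 811 and 800 normalised counts, against 807 and 574 for the coding transcripts. Its near-identical paralogue METTL2B had 10.2% and 16.5%, and the intron of METTL2B-206 is also 206 bases long, so reads may have been divided between both genes. DALRD3, a partner of METTL2A and METTL2B for arginine tRNA, had 45.8% and 28.4%, and OSGEPL1, a mitochondrial threonylcarbamoyl transferase, 36.6% and 24.5%. METTL8, the mitochondrial 3-methylcytidine methyltransferase, was lower, with 7.75% and 6.33% on 3 models (intervals 6.14 to 9.53% and 4.86 to 8.06%). Among them METTL8-216 had 32.5 and 35.1 and METTL8-214 had 42.1 and 20.6 normalised counts, so their order differed between libraries.

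Glycolytic enzymes had 1 of 15 genes at or over 10% and a median of 2.13% ± 0.553 (SD, n = 2), below that of all genes by more than the spread. The exception was ALDOA, the aldolase of muscle and most cultured cells, with 29.0% and 34.4%. ALDOA-212, with a 59-base intron inside and 44 own bases, had 5597 and 7468 normalised counts. PKM followed with 10.1% and 7.09% and PFKM with 9.35% and 6.96%.

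Factors of nuclear retention and export of intron-bearing RNA had 3 of 15 genes at or over 10% and a median of 4.28% ± 0.195 (SD, n = 2). THOC1, of the TREX export complex, had 57.1% and 58.1%, and the export helicases DDX39B and DDX39A had means of 33.2% ± 3.92 and 30.1% ± 0.177 (SD, n = 2). Nonsense-mediated decay factors had 3 of 12 and a median of 4.87% ± 0.264 (SD, n = 2), close to that of all genes. SMG9 had 41.0% and 42.6%, while its transcript with a whole intron held 0.736% and 5.16% of the gene. UPF3A had 15.5% and 14.3%, and MAGOHB 14.5% and 9.12%.

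Of 70 cytosolic ribosomal protein genes, 17 (24.3%) were at or over 10%, near the 26.2% of all genes. Their median was 3.97% ± 0.516 (SD, n = 2). RPS28, RPL14 and RPS23 led with means of 95.4%, 93.5% and 85.2%. With transcripts that hold a whole intron, 5 of 70 genes reached 10%. Mitochondrial ribosomal proteins had 12 of 41 at or over 10% (29.3%), also near that of all genes, and a median of 2.75% ± 0.0448 (SD, n = 2). MRPL2 had 72.9% and 77.9%, MRPL17 66.0% and 68.4% on a single transcript with a 307-base intron, and MRPS11 63.6% and 63.4%.

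**Figure D4:**
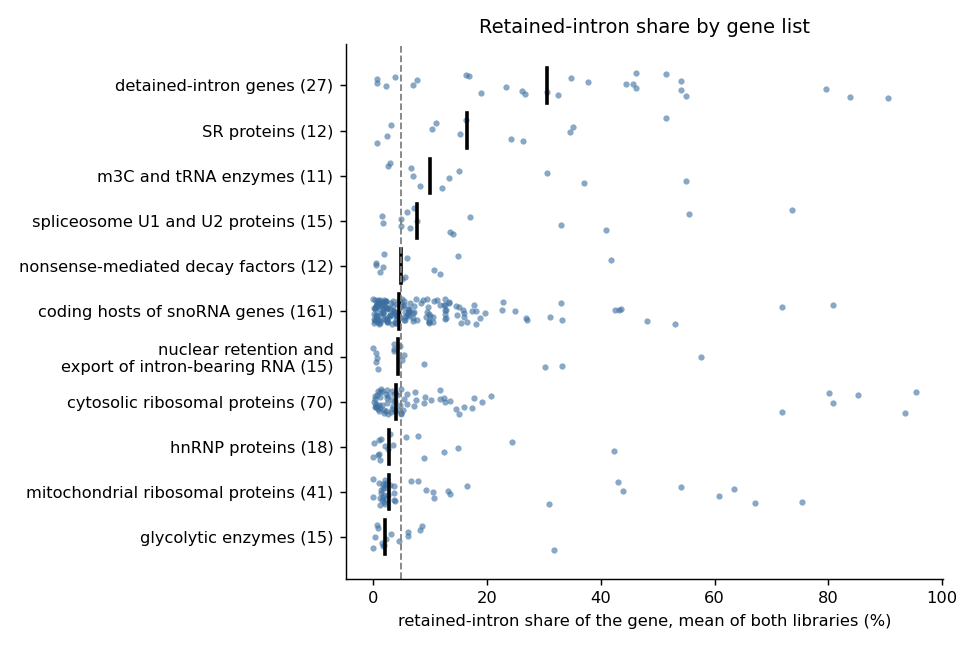
Retained-intron share of each gene (%, mean of both libraries) in 11 gene lists, with the number of genes in brackets, the list median as a black bar and the median over all 6852 genes (4.83%) as a dashed line. Detained-intron genes had a median of 30.5% and glycolytic enzymes of 2.13%, and in nearly every list single genes stood far to the right.

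Some retained introns contain the gene of a small RNA, which is cut out of the intron in the cell. Such a gene lay inside 186 of the 22123 transcripts, a snoRNA gene in 89 and a miRNA gene in 89, and these transcripts held 2.30% and 2.46% of the retained-intron counts. The highest was DDX5-215 itself, which holds MIR3064 and MIR5047. Next were RPL4-214 with SNORD16 and SNORD18C (1610 and 1117 normalised counts), RACK1-230 with SNORD96A (1426 and 1254), and EIF4A2-219 with SNORD2, SNORA4, SNORA63, SNORA63B, SNORA81 and MIR1248 (1404 and 1127). GNL3-211 with SNORD19B (1320 and 1152) made up 25.1% ± 3.03 (SD, n = 2) of its gene, a nucleolar GTPase. SNORD16, SNORD96A, SNORD2 and SNORD19B themselves were listed at 0 in both libraries. Inside EIF4A2-219, SNORA81 had 78.7 and 141.6 normalised counts and SNORA4 had 2.85 and 9.99. Several genes in the genome are named SNORA63, and 1 of them, not matched here to this intron by position, had 666 and 570.4. Of 161 coding genes that host a snoRNA in an intron, 36 (22.4%) were at or over 10%, with a median of 4.59% ± 0.276 (SD, n = 2), close to that of all genes.

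How well the counts of single transcripts repeated was measured as a change of more than 2-fold between the libraries on log2(normalised count + 1), among transcripts with a mean of at least 10. Of 12069 retained-intron transcripts, 25.2% (exact interval 24.5 to 26.0%) passed it, 1635 higher in replicate 2 and 1412 higher in replicate 1. Over all 67167 transcripts it was 29.6%, for coding transcripts 30.5%, for nonsense-mediated decay 41.4% and for undefined coding sequence 33.6%. At matched levels the gap was wider. Between 10 and 30 counts, 33.1% of retained-intron transcripts changed against 53.7% of coding ones, and between 100 and 300 counts 13.3% against 24.1%. Above 300 counts the order turned, with 9.68% against 8.40%. Among retained-intron transcripts, those with under 100 own bases passed in 37.3% and those with more in 22.9%. These percentages compare the 2 libraries only.

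**Figure D5:**
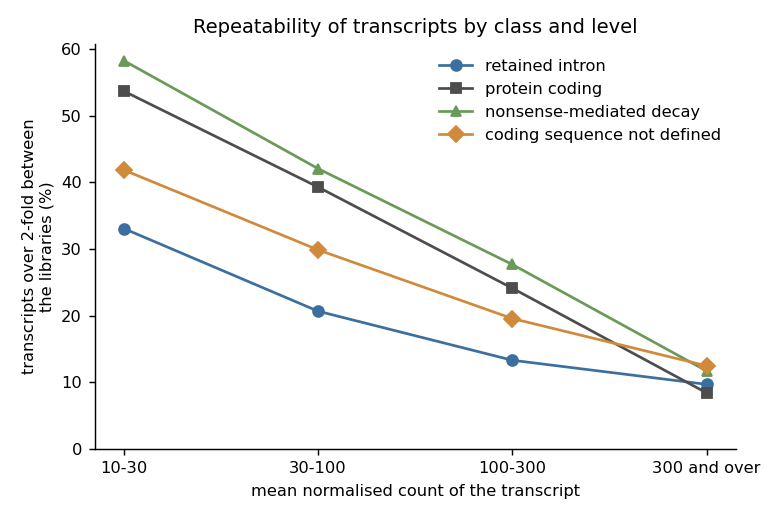
Percentage of transcripts whose normalised counts differed by more than 2-fold between the libraries, by mean normalised count of the transcript, for 4 transcript classes of protein-coding genes. Retained-intron transcripts (blue circles) lay lowest in the classes of 10 to 300 counts, at 33.1%, 20.7% and 13.3%, and above coding transcripts (dark squares) in the highest class, at 9.68% against 8.40%.

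The 5 largest changes among transcripts with a mean of at least 100 were all from or to 0. EIF4A1-207, of the initiation helicase, had 0 and 1074 normalised counts, and SPAG9-219, of a scaffold of JNK signalling, had 655 and 0. SPAG9-204, of the same gene, had 0 and 485, RPL13-208 had 0 and 552, and AAMP-209 had 0 and 428. By counting error alone a count of 0 allowed at most 0.0101% of EIF4A1, 0.0422% of SPAG9 and 0.101% of AAMP. These bounds do not cover how shared reads were divided between models. For SPAG9 the share of all retained-intron transcripts was 11.0% and 11.5% all the same, so one model took the place of the other, while for AAMP it went from 6.61% to 21.9%. EIF4A1-207 had no own bases. Summed per gene, 16.5% of genes with a retained-intron mean of at least 10 changed by over 2-fold, against 25.2% of single transcripts.

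Genes on the opposite strand limit these values, because no source says whether reads were counted by strand. Of the 6852 genes, 4397 overlapped a gene on the other strand, and 111 of them (2.52%) had a share of at least 50% in both libraries. Among the other 2455 it was 63 (2.57%). Reads of overlapping genes cannot be told apart where strand was not used. In these bulk libraries of rRNA-depleted total RNA, more intron-bearing molecules per cell and a larger part of nuclear RNA cannot be told apart either. RNA not yet fully spliced cannot be set apart in them.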

How the data were processed

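Total RNA from 2 libraries of HEK293 Flp-In T-Rex cells was depleted of rRNA and made into TruSeq libraries per the labels. The submitters' processing notes name FastQC, STAR 2.7.0d, RSEM 1.3.3 and R 3.6.3, and the study names GRCh38 with Ensembl release 104. The authors deposited an estimated (expected) count per transcript, in which RSEM splits a read with several possible transcripts over all of them. The second deposited value is a normalised signal, the estimated count divided by a size factor of 0.945 or 1.08. Neither is divided by transcript length. The strand setting is not given in the sources used here.

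Transcript identifiers, stripped of their version, were looked up in GENCODE v44, which took in 202217 of 206696 transcripts, 173547 with the same version. Of the retained-intron transcripts 26740 kept their version. Structures and sequences were read from GENCODE v44 and hg38, so they describe the v44 model. Shares are normalised counts over the gene total, given as mean ± SD over 2 libraries. Intervals are exact Clopper-Pearson 95% intervals on rounded estimated counts and cover counting error only. The upper bounds given for a count of 0 are instead 3 estimated counts over the gene total. An own base lies in no exon of the listed transcripts of the gene that are not retained-intron transcripts. Introns were examined from 30 bases. Alternative scaling used TMM from edgeR 4.0.16 in R 4.3.3, and the rest Python 3.11.15, pandas 2.3.3 and pysam 0.24.0.

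Named were the 10 highest transcripts, the 10 genes of highest share (at least 50 retained-intron counts in both libraries), the 10 most abundant genes of at most 1%, the leading 3 genes of each list with every 3-methylcytidine methyltransferase, and the 5 largest changes between libraries. Other genes named from the lists were picked after their values were seen. The retained-intron transcripts and the lists were chosen with earlier results of these data known. Dividing by length, version, strand, minimum and pseudocount were varied, and the closing section gives the effect. A table of METTL8 transcripts repeats rows of the full tables and was not used. A result that rests on a withheld item is not reported here.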

Additional observations from a re-analysis of the deposited data

Results flagged for a closer look

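Retained-intron transcripts also occurred outside protein-coding genes, in data that no comparison above used. There were 796 of them, 694 in lncRNA genes, with 23214 estimated counts in replicate 1 and 26398 in replicate 2. This was 0.0923% and 0.0973% of the libraries. The highest were SNHG29-219, with 1896 and 1366 normalised counts, ENST00000499521, with 1445 and 1122, and SNHG3-202, with 1198 and 1327. SNHG29 and SNHG3 are snoRNA host genes without a protein. No control samples exist for a background.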

How the results depend on the processing

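Of 48 alternative values, 19 stayed within the spread of the libraries or within 1.5 times a count. A single library always lies within the spread around the mean of both, so for the shares its place among the 19 was fixed in advance. The retained-intron share of 6.71% was 9.93% per transcript length, 11.5% with transcripts of the same version only, 5.13% in genes without one on the opposite strand, and, in alternatives chosen after the data were seen, 3.32% for transcripts with a whole intron, 5.02% for those with at least 100 own bases and 5.95% without EEF1A1. Single libraries gave 6.59 to 6.82%. The median share of 4.83% was 10.1% per transcript length, 10.53% (same version), 5.05% (opposite strand), 0.0% (whole intron) and 3.59% (own bases). It was 5.24% at a gene minimum of 10, 3.76% at 1000, and 4.64 to 5.01% in single libraries. The 174 genes of at least 50% numbered 229 (length), 616 (same version), 63 (opposite strand), 69 (whole intron) and 113 (own bases). They numbered 294 (minimum 10) and 51 (minimum 1000), and 213 to 233 in single libraries. The 210 genes led by a retained-intron transcript numbered 261 (length), 655 (same version), 73 (opposite strand), 111 (whole intron) and 146 (own bases). They numbered 334 (minimum 10) and 58 (minimum 1000), and 280 to 281 in single libraries. The same-version setting drops coding transcripts whose version changed, and the opposite-strand and minimum settings test other numbers of genes. The 25.2% over 2-fold was 12.4% at a mean of at least 100, 40.04% above 0, 26.5% with a pseudocount of 0.1, 16.5% for sums per gene, 23.1% with a whole intron and 22.9% with own bases. Settings not printed here were among the 19 that stayed. The cause of the other moves was not tested.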
